A study of Mus musculus with 3 samples.

Results

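MicroRNA-155 (miR-155) is made from a long non-coding host transcript, Mir155hg, which lymphocytes induce on activation. The genes described here are that host and 7 genes reported in other work as targets of the microRNA: Inpp5d, Spi1, Cebpb, Ets1, Bach1, Jarid2 and Peli1. These 8 of the 18193 genes named on the array were read from every probe set annotated with one of the symbols alone, 20 of 45037 probe sets besides controls. The set was selected on the measured HFD and ND intensities of these same arrays, so the levels and differences of the 8 genes are a description and carry no test.

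The RNA came from memory phenotype CD4 T cells, helper T cells with the surface phenotype of past activation, sorted from spleens of BALB/c mice. The HFD group (2 arrays) came from mice fed a high fat diet, 60 kcal% fat, for 10 weeks. The ND group (1 array) came from mice fed a normal diet as long. The labels give no age and do not say whether an array holds 1 mouse or a pool, so the spread between the HFD arrays may be technical. The ND array has no error of its own, and anything else that set this 1 sample apart cannot be told apart from diet. Values are intensities, linear on the scale the authors deposited, with array medians of 69.7 and 67.4 in HFD and 78.3 in ND.

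In animals, a microRNA is cut from a hairpin in its host transcript and loaded into an Argonaute protein. It then pairs through its seed, the bases near its 5′ end, with sites in messenger RNAs, which are silenced or degraded. In mice, miR-155 is known for its part in helper T cell differentiation and cytokine responses. The mature microRNA was not measured by these arrays.

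The sequences of the hairpin and its arms show what the host transcript carries. They are those of RefSeq, build GRCm38.p6, written 5′ to 3′. Capitals mark both mature arms in the hairpin and the seed (bases 2 to 8) in each mature microRNA.
mmu-mir-155 hairpin: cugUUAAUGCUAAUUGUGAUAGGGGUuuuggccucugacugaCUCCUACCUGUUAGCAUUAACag
mmu-miR-155-5p: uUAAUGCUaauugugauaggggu
mmu-miR-155-3p: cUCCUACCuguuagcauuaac
The hairpin lies on the plus strand at chr16:84714140-84714204 and the 5p arm at chr16:84714143-84714165. The hairpin starts 1117 bases after the annotated start of Mir155hg, a gene that spans 2223 bases. Of the 1738 mature microRNAs in the table, 0 others share the 5p seed UAAUGCU. A messenger RNA site that pairs with this seed reads AGCAUUA. Target sites in the messenger RNAs were not analysed here.

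Mir155hg read 2029.7 and 2634 in HFD, against 127 in ND, on its 1 probe set. Both HFD arrays lay far above ND: the host stood at percentiles 91.3 and 93.2 of all probe sets on the HFD arrays, against 57.0 on the ND array. The HFD mean was 2332 ± 427 (SD, n = 2), 16.1-fold the ND level. Folds here are ratios of intensity + 17.65, an offset at the 25th percentile of all values, and so are smaller than plain ratios for dim genes. They were taken from the mean of the log2 differences of the HFD arrays to ND, not from the mean intensity printed beside them. On the same log2 scale the differences to ND were 3.82 and 4.19. Among the 3700 genes above ND in both HFD arrays, Mir155hg had rank 10 by the smaller of its differences. The HFD arrays differed from each other by 0.37 (log2) for Mir155hg, against a median absolute difference of 0.13 over the 10341 genes tested.

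**Figure D1:**
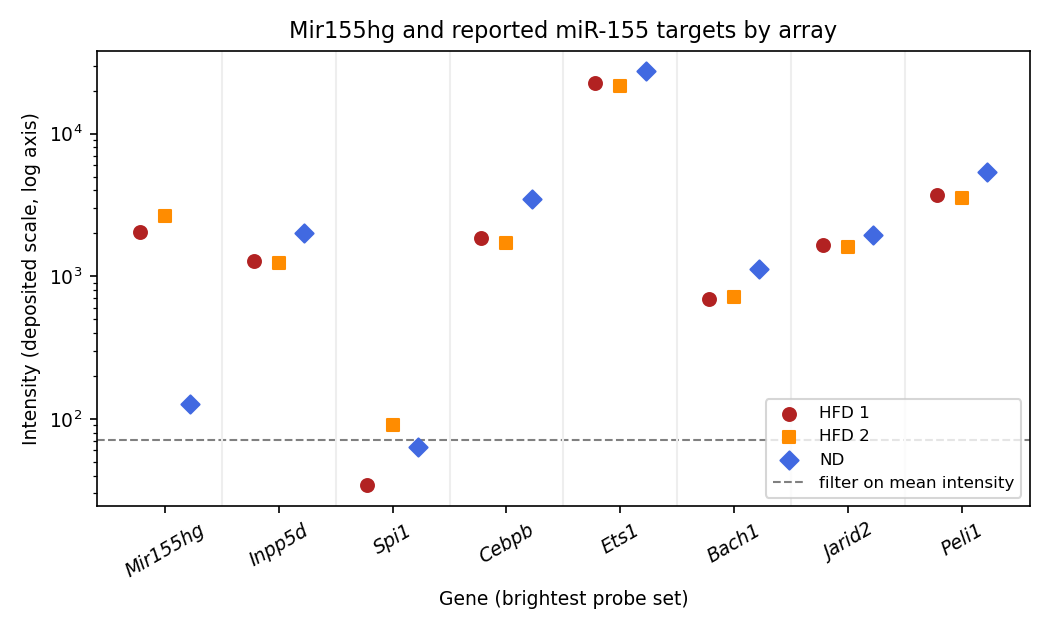
Intensity (log axis) on the brightest probe set of each of the 8 genes, with 1 point per array, HFD 1 and HFD 2 left of ND. Mir155hg lay far above ND in both HFD arrays (2029.7 and 2634, against 127), 6 targets lay below ND in both, and the ND point of Spi1 lay between its HFD points near the dashed line, the filter of 71.4 on the mean of the 3 arrays.

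Inpp5d encodes SHIP1, the phosphatase that removes the 5-phosphate from the product of PI3 kinase and restrains signalling in blood cells. It read 1273 and 1229.8 in HFD, against 2002 in ND. The HFD arrays lay close together, with a mean of 1252 ± 30.9 (SD, n = 2), 1.59-fold below ND. Its dimmer probe set read 127 and 181 in HFD, against 240.0 in ND, and lay 1.52-fold below ND.

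Peli1 encodes Pellino 1, a ubiquitin ligase of Toll-like receptor signalling that restrains T cell activation in mice. It read 3738 and 3561 in HFD, against 5377 in ND, with an HFD mean of 3649.5 ± 125 (SD, n = 2), 1.47-fold below ND. On its 4 other probe sets both HFD arrays also lay below ND, by 1.31-fold to 1.97-fold. The farthest was the dimmest, at 157 and 122 in HFD, against 291 in ND.

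Cebpb encodes C/EBP beta, a leucine zipper factor of inflammatory and myeloid gene programmes. It read 1844 and 1717 in HFD, against 3497 in ND. The HFD mean of 1781 ± 89.6 (SD, n = 2) was 1.96-fold below ND, the largest difference among the 6 targets past the filter on their brightest probe sets. The second probe set read 513 and 391 in HFD, against 972 in ND, and lay 2.12-fold below ND, with HFD 1 less than 2-fold below.

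Ets1 encodes an ETS-family transcription factor needed for normal T cell development. It was the brightest of the targets on every array, at 22639.7 and 21583 in HFD, against 27288 in ND. The HFD mean of 22111 ± 747 (SD, n = 2) was 1.23-fold below ND. A second bright probe set lay 1.21-fold below ND, and the 2 dimmer ones lay 1.53-fold and 1.40-fold below, reading 1381 and 1248 in HFD, against 2024 in ND, and 1136 and 911 in HFD, against 1435 in ND. The probe sets of Ets1 differed in the size of the difference and had the same direction.

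Bach1 encodes a heme-regulated repressor of antioxidant genes that pairs with small MAF proteins. It read 697 and 710.1 in HFD, against 1132 in ND. The HFD mean of 703 ± 9.42 (SD, n = 2) was 1.59-fold below ND. On the dimmer probe set, at 257 and 162 in HFD, against 259.8 in ND, HFD 1 almost equalled ND while HFD 2 lay below it.

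Jarid2 encodes a DNA-binding subunit of Polycomb repressive complex 2 (PRC2), which methylates histone H3 at silenced genes. It read 1648 and 1595 in HFD, against 1940.4 in ND. The HFD mean of 1621 ± 37.4 (SD, n = 2) was 1.19-fold below ND, the smallest difference of the 6. The other probe sets lay 1.23-fold and 1.37-fold below ND.

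Spi1 encodes PU.1, the ETS-family factor of myeloid and B cells. Its 1 probe set read 34.1 and 90.2 in HFD, against 63.0 in ND. ND lay between the HFD arrays, which differed from each other by 1.06 (log2), and the mean of the arrays was under the filter of 71.4, the median over all probe sets. No difference could be read for Spi1 at this signal.

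Of the 7 targets, 6 passed the filter. On the deposited scale their 18 probe sets were all below ND in both HFD arrays, while 0 were above ND in both. By percentile within each array, HFD 1 stood above ND on the dimmer probe set of Bach1 (67.6 against 66.4). The same held for a dim probe set of Peli1 (65.98 against 65.91). Over all probe sets past the filter 54.0% were below ND in both HFD arrays and 34.9% above in both. Over genes these shares were 54.7% and 35.8%. By limma's test across all genes (adjusted p under 0.05), 49.6% of genes were called in either direction, 29.2% lower and 20.5% higher. No call is given for the members, the host and its 7 targets. Mir155hg was at least 2-fold above ND in both HFD arrays, as were 6.00% of genes, and 0 targets were at least 2-fold below ND in both, against 2.60% of genes. The genes were chosen with this contrast known, so nothing is read from these counts.

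The median log2 difference of the 6 targets was -0.61 (range -0.97 to -0.26), against -0.15 over all genes tested. Centring each array on its median gave -0.46 for the targets and 0.00 for all genes. The deposited scale gave 2117 genes called higher and 3015 lower, and centred arrays gave 2757 higher and 2097 lower. With centred arrays the log2 difference of Ets1 was -0.15.

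**Figure D2:**
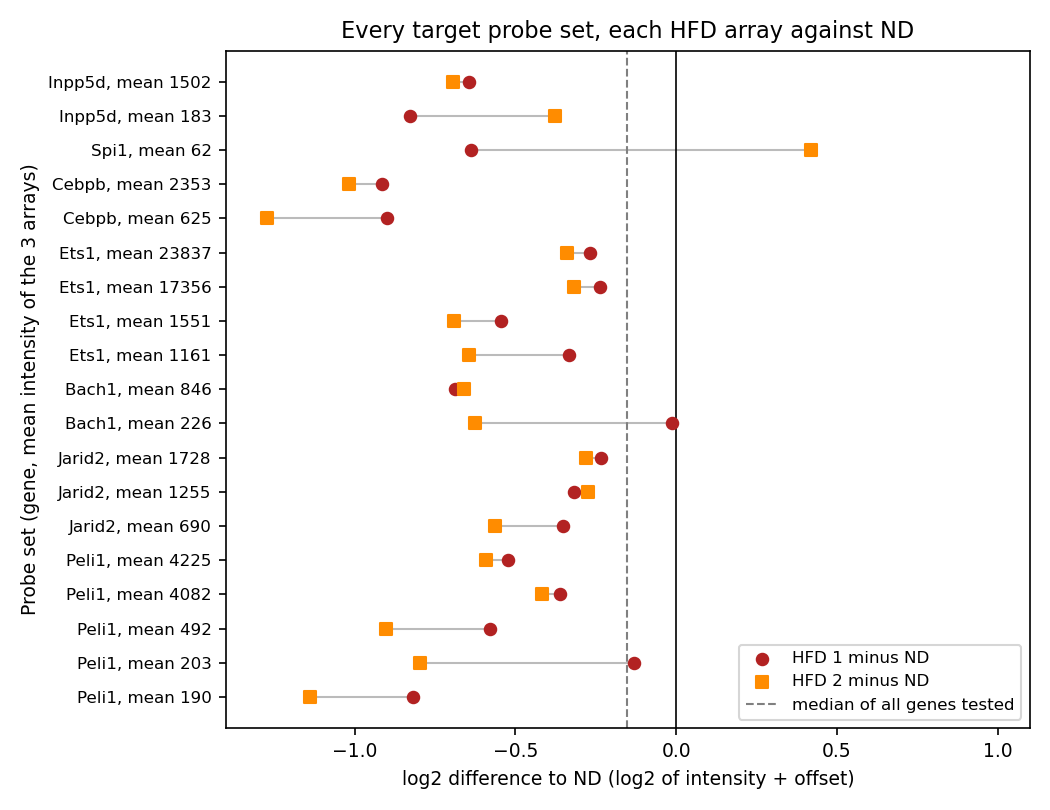
The log2 difference of each HFD array to ND for the 19 probe sets of the 7 targets (circles HFD 1, squares HFD 2), with a dashed line at -0.15, the median of all genes tested. In 18 probe sets both points lie below 0, and the points of Spi1 lie on opposite sides of it.

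**Figure D3:**
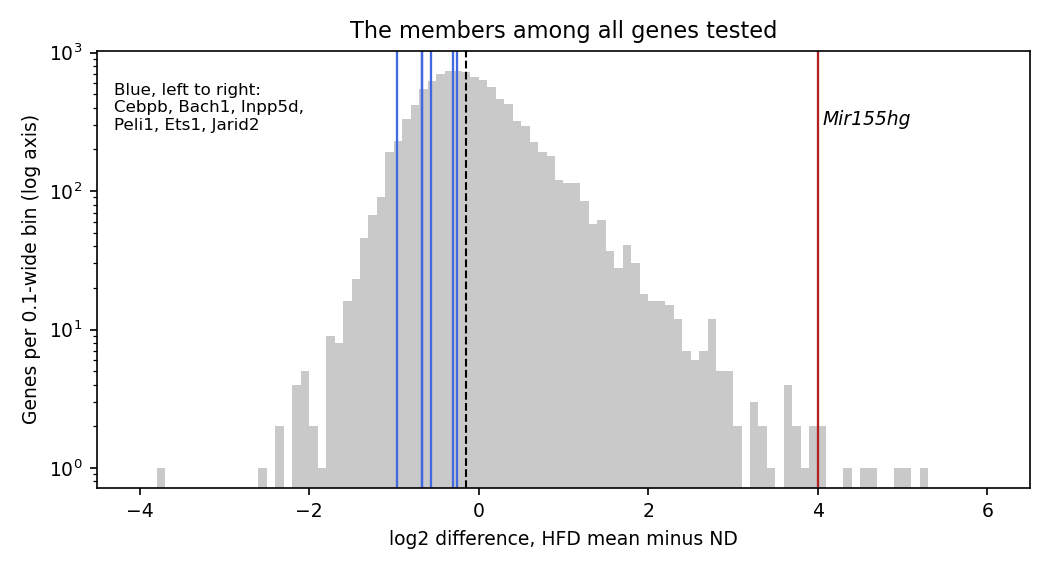
Genes per bin (log axis) by log2 difference, HFD mean minus ND, for the 10341 genes tested, with the 7 members past the filter as vertical lines and the median of all genes dashed. The 6 targets lie between -0.97 and -0.26, and Mir155hg at 4.01 in the sparse upper tail.

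Other cell types left in a sort could carry some of these genes, so their markers were read in the same arrays. All 7 CD4 T cell markers on the array passed the filter and lay below ND in both HFD arrays, as did 54.7% of all genes. Their median log2 difference was -0.42, against -0.15 over all genes. The differences ran from -0.11 for Cd28 to -0.90 for Cd4. Cd4 read 609 and 377 in HFD, against 911 in ND, and its other probe set lay at log2 -0.61. Cd3e lay at log2 -0.74. Cd3d read 19833 and 19515 in HFD, against 22919 in ND, at log2 -0.22, or -0.07 with arrays centred. Cd44 read 5623 and 5699.8 in HFD, against 9761 in ND. Markers of macrophages and monocytes, cells rich in Cebpb and Spi1, summed to 2166 and 2864 in HFD, against 6199 in ND, over 14 genes. Of the 8 past the filter 7 lay below ND in both HFD arrays, as did 54.7% of all genes. Among them were Mpeg1, the brightest of the 14 (1111 and 1608 in HFD, against 3556 in ND), and Cd68 (162 and 160.2 in HFD, against 345 in ND). C1qb, another, was dim (65.6 and 34.8 in HFD, against 128 in ND). For Ms4a7, ND lay between the HFD arrays (66.0 and 79.7 in HFD, against 73.0 in ND). Adgre1, which encodes F4/80, read 101 and 119 in HFD, against 188 in ND and was not called. The 6 under the filter were Itgam, Fcgr1, Cd14, Fcgr3, C1qa and C1qc, and none was listed at 0. Fcgr1 lay above ND in both HFD arrays (45.3 and 63.6, against 34.0). Itgam (37.3 and 2.46, against 19.2) and C1qc (18.0 and 6.20, against 15.1) lay on both sides of ND. Cd14 (7.58 and 24.3, against 28.7), Fcgr3 (7.73 and 30.9, against 76.1) and C1qa (8.54 and 65.3, against 133) lay below ND in both. Dendritic cell markers summed to 783 and 885 in HFD and 1915 in ND over 6 genes. The brightest was Siglech (338 and 407 in HFD, against 956 in ND). For Zbtb46, ND lay between the HFD arrays (137 and 113 in HFD, against 135 in ND), and the others lay below ND in both. B cell markers summed to 2870.1 and 3015 in HFD and 1712 in ND over 9 genes, a direction carried by Ms4a1, which encodes CD20 (1612 and 1837 in HFD, against 56.8 in ND). Without Ms4a1, a choice made after seeing the data, the other 8 summed to 1258 and 1178 in HFD, against 1655 in ND. Among them Cd22 fell (605 and 504 in HFD, against 939 in ND, adjusted p = 0.0020). Pax5, under the filter, read 27.0 and 6.86 in HFD, against 65.1 in ND. Cd79b and Fcrla also lay below ND in both HFD arrays and were not called. For Blnk, ND lay between the HFD arrays. Cd79a, Ebf1 and Cr2, all under the filter, lay above ND in both HFD arrays, at log2 1.54, 1.19 and 0.61. With no filter 2 B cell markers were called higher, against 1 with the filter. Neutrophil markers summed to 611 and 692 in HFD and 189 in ND over 7 genes. This difference lay mainly in S100a8 (247 and 362 in HFD, against 40.9 in ND) and S100a9 (183 and 131 in HFD, against 5.85 in ND), without which the other 5 summed to 181 and 199 in HFD, against 142 in ND; of these Ngp was not called and 4 were under the filter. The part of these cells in the levels of the host and its targets was not tested. In bulk samples, fewer cells of a type and less RNA per cell cannot be told apart.

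The 5 genes with a pattern most like that of Mir155hg over the 3 arrays were Cnn3, Lad1, Bcat1, Bex1 and Il2. Likeness was the Euclidean distance between the pairs of log2 differences to ND, 0.12 for Cnn3 and 0.36 for Il2. Cnn3, an actin-binding calponin, read 1799.5 and 2089.7 in HFD, against 101 in ND. Il2, the T cell growth factor, read 8985 and 10234 in HFD, against 687 in ND. Both genes, like Mir155hg, were higher in HFD 2 than in HFD 1, an order that entered the distance by which they were chosen.

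A further 31 genes reported as targets of miR-155 were taken as a wider list. Of 25 tested, 11 fell and 3 rose in HFD (44.0% and 12.0%, against 29.2% and 20.5% of all genes tested), and the median log2 difference was -0.27, against -0.15 over all genes. With arrays centred 9 fell and 5 rose, and with probe sets averaged 11 fell and 1 rose. Csf1r, the receptor for macrophage colony-stimulating factor and also one of the myeloid markers above, fell by 1.47 on the log2 scale (224 and 296 in HFD, against 743 in ND, adjusted p = 6.8e-05). Fos, an AP-1 subunit, fell by 1.31 (7719 and 6594 in HFD, against 17705 in ND, adjusted p = 5.7e-07). Foxo3, a forkhead factor of quiescence and cell death, fell by 1.21 (1192 and 980.1 in HFD, against 2522 in ND, adjusted p = 2.5e-05). Ctla4, the inhibitory receptor, read 4345 and 4685 in HFD, against 9035 in ND, and also fell (adjusted p = 5.1e-06).

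The 3 that rose, named after their values were seen, were Wee1, a mitotic inhibitor kinase (log2 0.57), Satb1, a chromatin organiser of T cells (0.55), and Msh6, a mismatch repair protein (0.41). With probe sets averaged, limma's adjusted p was 0.063 for Wee1 and 0.057 for Satb1, and without a variance trend it was 0.067 for Msh6. Socs1, an inhibitor of cytokine signalling, read 256 and 173 in HFD, against 253 in ND, so that ND lay between the HFD arrays (adjusted p = 0.44).

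**Figure D4:**
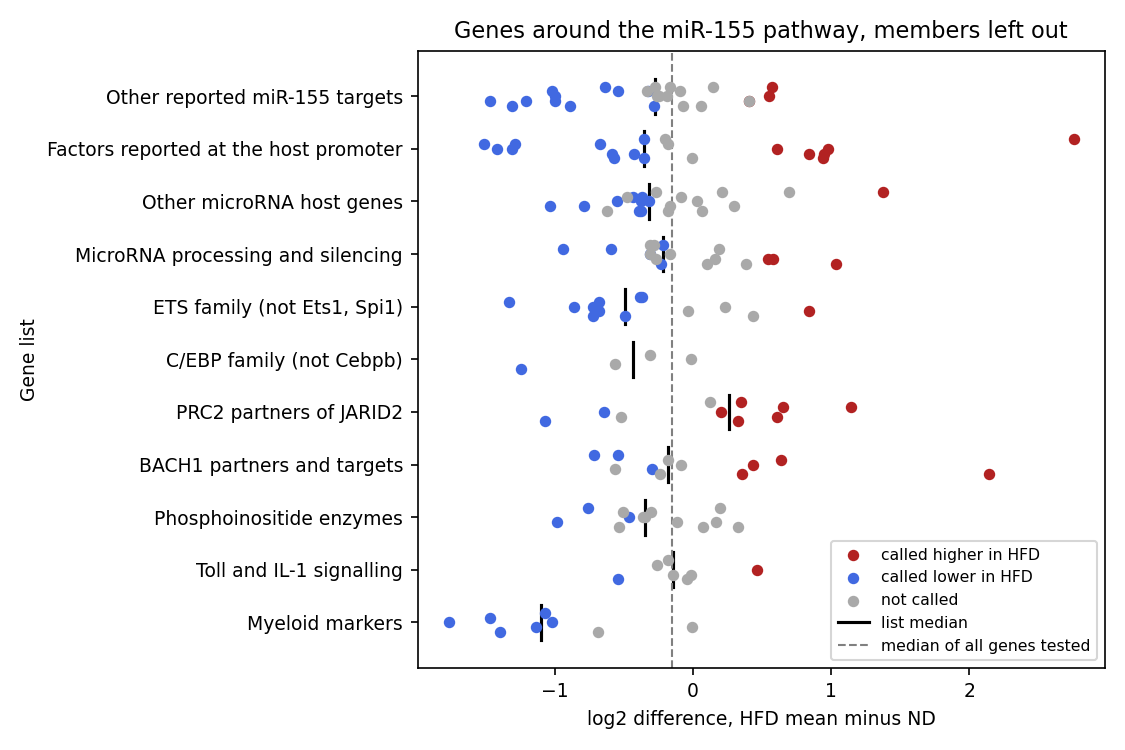
The log2 difference, HFD mean minus ND, of each gene past the filter in 11 lists without the 8 members, coloured by limma's call, with each list's median as a black bar and the median of all genes dashed. Among the lists drawn, PRC2 partners had the highest median (0.26) and myeloid markers the lowest (-1.10).

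Of 19 transcription factors reported to act on the host gene, 6 rose and 10 fell (31.6% and 52.6%, against 20.5% and 29.2% of all genes; median log2 -0.35, against -0.15). Those that fell included AP-1 genes: Jun by 1.42 (2055 and 1555 in HFD, against 4818 in ND, adjusted p = 8.9e-06), Fos as above, and Fosb by 1.52 (149 and 81.4 in HFD, against 350.3 in ND, adjusted p = 0.0014, and 0.053 with no filter on low values). Fosl1, the AP-1 subunit FRA1, rose by 2.75 (118 and 138 in HFD, against 3.90 in ND, adjusted p = 1.6e-04), and its ND value lay below the offset, so that the size depends on the offset. Rel, a subunit of NF-kappaB, read 833 and 866 in HFD, against 422 in ND, and rose (adjusted p = 1.7e-04), and Myb, a factor of lymphocytes and progenitors, read 1929.9 and 2539.9 in HFD, against 1147 in ND, and rose (adjusted p = 3.2e-04). The other NF-kappaB subunits tested differed from Rel. Rela and Relb lay below ND in both HFD arrays (log2 -0.18 and -0.20). Nfkb2 lay at log2 0.95 on its brightest probe set and at -0.14 on its other. Myb and all these NF-kappaB subunits were named after their values were seen.

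The window of 250 bases before to 50 after the annotated start of Mir155hg is shown for the motifs of these factors. It lies at chr16:84712773-84713072 on the plus strand (RefSeq, GRCm38.p6), and capitals mark matches. Whether transcription of the host in these cells begins at this annotated start was not tested, and a promoter elsewhere would lie outside the window.
Mir155hg start window: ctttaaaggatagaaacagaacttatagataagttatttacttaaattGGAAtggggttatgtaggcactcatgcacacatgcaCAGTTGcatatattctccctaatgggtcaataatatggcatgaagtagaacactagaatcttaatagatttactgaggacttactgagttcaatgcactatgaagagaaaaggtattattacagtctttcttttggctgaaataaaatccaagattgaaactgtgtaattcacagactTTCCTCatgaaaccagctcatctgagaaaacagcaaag
In all, 9 motifs were searched on both strands, a choice made with these data known, and each is given with its share of 32851 start windows. The MYB motif CAACTG (13.7% of windows) matched once, on the minus strand at base -166 from the start. The PU.1-type motif GAGGAA (28.3%) matched once, on the minus strand at base 13. The ETS core GGAA (96.0%) matched at base -202 and within the PU.1-type match, which overlaps it. The 6 motifs with no match were AP-1 TGANTCA (7.81%), the NF-kappaB consensus, named only (4.79%), ETS1-type CCGGAAG (8.86%), C/EBP ttgcnnaa (10.8%), the cAMP response element tgacgtca (1.79%) and the TATA box TATAAA (13.6%), which says only that these letters are not in the window. Windows were given for 6 of the 8 genes; GAGGAA was also in those of Inpp5d, Jarid2 and Bach1, and TATAAA in those of Cebpb and Jarid2.

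Of 13 relatives of Ets1 and Spi1 tested in the ETS family, 9 fell and 1 rose (69.2% and 7.69%, against 29.2% and 20.5% of all genes; median log2 -0.49). With no filter, and without a variance trend, 6 were called lower. Etv5 fell by 1.33 (121 and 134 in HFD, against 347 in ND, adjusted p = 6.1e-04), Etv3, a repressor, by 0.86 (1081 and 1107 in HFD, against 2005 in ND, adjusted p = 1.5e-04) and Elf1, a lymphoid relative, by 0.72 (3874 and 3976 in HFD, against 6497 in ND, adjusted p = 8.2e-05). Ets2, the close relative of Ets1, rose by 0.84 (1197 and 1324 in HFD, against 696 in ND, adjusted p = 3.4e-04). Spib, the B cell relative of Spi1, read 193 and 208 in HFD, against 342 in ND (adjusted p = 0.012, and 0.086 with no filter). Elf2, Elk3, Etv6, Elk4 and Fli1 also fell, but the calls of Etv6 and Elk4 ended with arrays centred, that of Fli1 with no filter and that of Elf2 with probe sets averaged. Erf, Elk1 and Gabpa were not called, and Spic, Elf4 and Erg were under the filter.

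The 4 C/EBP genes tested besides Cebpb all lay below ND in both HFD arrays, as did 54.7% of all genes. Their median log2 difference was -0.44, against -0.15 over all genes. Cebpa, the myeloid factor, fell by 1.24 (164 and 136 in HFD, against 378 in ND, adjusted p = 7.4e-04). Cebpd read 67.6 and 77.7 in HFD, against 116 in ND (adjusted p = 0.19), and Cebpg 999 and 995 in HFD, against 1007 in ND (adjusted p = 0.94). Ddit3, the stress-induced member, was not called either (adjusted p = 0.14). The summed myeloid markers given above were also lower in HFD, and their part in Cebpa was not tested.

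Of 10 partners of JARID2 in PRC2 tested, 6 rose and 2 fell (20.5% and 29.2% of all genes did; median log2 0.26). Those called higher were 3 with no filter or without a variance trend, and 4 with quantile normalization or probe sets averaged. Ezh2, the methyltransferase subunit prominent in dividing cells, rose by 1.15 (5899.7 and 6925 in HFD, against 2879.8 in ND, adjusted p = 5.1e-06). The histone-binding Rbbp7 rose by 0.65 (adjusted p = 4.2e-05) and the scaffold Eed by 0.61 (adjusted p = 3.1e-04). Phf1, an accessory subunit, fell by 1.08 (480.2 and 396 in HFD, against 938 in ND, adjusted p = 2.1e-04). Suz12, Aebp2 and Rbbp4 rose by 0.20 to 0.35, calls that ended with no filter, and Rbbp4 turned to -0.02 with quantile normalization. Ezh1, the methyltransferase of resting cells, fell by 0.65 (adjusted p = 0.0042, and 0.056 without a variance trend). Mtf2 and Phf19, accessory subunits, were not called.

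Of 11 partners and targets of BACH1 tested, 4 rose and 3 fell (36.4% and 27.3%, against 20.5% and 29.2% of all genes; median log2 -0.18). With no filter 2 rose and 0 fell. Bach2, the relative that restrains T cell effector differentiation in mice, rose by 2.14 on its brightest probe set (4727 and 5341 in HFD, against 1126 in ND, adjusted p = 3.1e-08), but its other probe sets differed by -0.21 and 0.46. Hmox1, the heme oxygenase that BACH1 represses, fell by 0.72 (110.3 and 116 in HFD, against 197 in ND, adjusted p = 0.044, and 0.12 with arrays centred). Gclm, a subunit for glutathione synthesis, rose by 0.64 (adjusted p = 0.0016, and 0.12 with probe sets averaged), and Mafg, a small MAF, by 0.43 (adjusted p = 0.024, and 0.068 with no filter).

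Of 13 phosphoinositide enzymes and adaptors tested beside SHIP1, 3 fell and 0 rose (23.1% lower, against 29.2% of all genes; median log2 -0.35). With arrays centred 2 were called higher, and under a filter at the 75th percentile 6 were called lower. Pik3r1, a regulatory PI3 kinase subunit, fell by 0.99 (1337 and 1030.4 in HFD, against 2343 in ND, adjusted p = 2.3e-04). Inpp4a, a 4-phosphatase, fell by 0.76 (595 and 563 in HFD, against 994 in ND, adjusted p = 0.0010), and Pik3ca, a catalytic subunit, by 0.46 (adjusted p = 0.0054, and 0.052 without a variance trend). Inppl1, the SHIP2 relative of Inpp5d, read 709 and 860.3 in HFD, against 848 in ND (adjusted p = 0.56).

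Of 7 genes tested around Pellino in Toll and interleukin-1 signalling, 1 lay above ND in both HFD arrays and 4 lay below. Over all genes these shares were 35.8% and 54.7%. The median log2 difference of the 7 was -0.15, against -0.15 over all genes. Tab2, an adaptor that is also on the list of reported targets, fell by 0.55 (4788 and 4961 in HFD, against 7127 in ND, adjusted p = 5.2e-04). Map3k7, the kinase it binds, rose by 0.47 on its brightest probe set, but its other probe sets differed by -0.66 to 0.66. Its call ended with no filter and with probe sets averaged (log2 0.18). Peli2, the relative of Peli1, was under the filter, with 20.3 and 22.4 in HFD, against 72.1 in ND.

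Of 21 other microRNA host genes tested, 1 rose and 9 fell (4.76% and 42.9%, against 20.5% and 29.2% of all genes; median log2 -0.32), and with arrays centred 4 rose and 2 fell. Mcm7, a replication helicase gene with 3 microRNAs, rose by 1.38 (10206 and 11384 in HFD, against 4138 in ND, adjusted p = 2.4e-07). Mir22hg, the host of miR-22, fell by 1.04 (173 and 184 in HFD, against 386 in ND, adjusted p = 0.0014), and Ctdsp2, a phosphatase gene, by 0.79 (adjusted p = 6.3e-05). Dleu2 fell by 0.55 on its brightest probe set, but its other probe sets differed by -0.66 and 0.53. Its call ended with arrays centred and with probe sets averaged (log2 -0.23). The microRNAs of Mcm7 and Mir22hg, chosen after the values were seen, are shown to set their seeds beside that of miR-155.
mmu-miR-106b-5p: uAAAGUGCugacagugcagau
mmu-miR-93-5p: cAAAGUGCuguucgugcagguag
mmu-miR-25-3p: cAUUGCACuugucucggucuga
mmu-miR-22-3p: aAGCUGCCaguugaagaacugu
The microRNAs miR-106b-5p and miR-93-5p share the seed AAAGUGC, and none of the 4 shares that of miR-155-5p. Those of Mcm7 lie on the minus strand at chr5:138165787-138165807, chr5:138165574-138165596 and chr5:138165332-138165353 in the order shown, and miR-22-3p at chr11:75463772-75463793 (RefSeq, GRCm38.p6).

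Of 17 genes for microRNA processing and silencing tested, 3 rose and 5 fell (17.6% and 29.4%, against 20.5% and 29.2% of all genes; median log2 -0.22). With arrays centred 6 rose and 1 fell. Ran, the GTPase that drives nuclear export of microRNA precursors, rose by 1.03 (24826 and 26343 in HFD, against 12487 in ND, adjusted p = 2.8e-07), and Tarbp2, a partner of Dicer, by 0.58 (adjusted p = 0.0048). Tnrc6b, which links Argonaute to silencing, fell by 0.60 (2444 and 2359.8 in HFD, against 3642 in ND, adjusted p = 8.0e-04), and Ago4 by 0.95 (53.7 and 59.5 in HFD, against 125 in ND, adjusted p = 0.049, and 0.11 with arrays centred). Ago2, the slicing Argonaute, read 3522 and 3387 in HFD, against 3089.7 in ND (adjusted p = 0.24), and Dicer1 1173 and 1258 in HFD, against 1367 in ND (adjusted p = 0.31). All these p-values take the spread from the HFD arrays alone, as the single ND array gives none.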

How the data were processed

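Expression was read from 3 Affymetrix arrays. The values are intensity on a linear scale, 1 per probe set, as the authors deposited them. GCOS, Affymetrix software, is named in the submitters' processing notes; its version and algorithm are not stated there. A mean trimmed by 2% at both ends came to 500.0 on each array, so the deposited values were scaled alike. Of 45101 probe sets, 64 were controls, and 34945 had 1 gene symbol in the platform annotation, 932 several and 9160 none; 34741 matched RefSeq (GRCm38.p6) by gene. Listed genes without such a probe set were not analysed here.

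A gene was read from its brightest probe set and tested where its mean intensity was above 71.4, as log2(intensity + 17.65). The groups were compared in limma 3.58.1 (R 4.3.3) with a variance trend, two-sided, and p-values were adjusted by Benjamini-Hochberg over 10341 genes. Each gene had 1 residual degree of freedom and 11.69 prior ones. The fit was run on simulated data with known changes, in which all 3 arrays had the fitted spread. Such data cannot check whether the ND array varies like the HFD arrays. Having 3 arrays limits the precision.

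The members, lists and motifs were chosen with earlier results of these data known. The text names every member, up to 4 called genes per list ranked by the smaller of their differences from ND, family or complex partners of members, and the 5 genes nearest to Mir155hg. Marker genes, Socs1, Ago2, Dicer1 and the genes said to be so were named after their values were seen. Alternatives were the normalization, offset, filter, merging of probe sets, variance model, fold threshold leaving out either HFD array and, added after seeing the data, marker sums without the genes that carry them. Tables and figures used Python 3.11.15, pandas 2.3.3, numpy 2.4.6 and matplotlib 3.10.9.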

Additional observations from a re-analysis of the deposited data

How the results depend on the processing

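Another normalization, offset or merging of probe sets could move 27 log2 values of the 7 members past the filter. All 27 kept their sign, and 12 moved by less than the spread between the HFD arrays. The filters cannot change these values. Mir155hg was at log2 3.58 with the larger offset, against 4.01, and between 3.82 and 4.19 with 1 HFD array left out. With arrays centred, Ets1 was at log2 -0.15 and Jarid2 at -0.10. At 1.5-fold, 3 targets were lower by size, against 0 at 2-fold, and 0 to 1 were with 1 HFD array left out.

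Over all genes, 1922 were called lower with no filter, against 3015. By the 2-fold rule 269 genes were lower, against 125 with arrays centred, 137 with the larger offset, 513 with no filter, 114 under the stricter filter and 439 to 632 with 1 HFD array left out. At 1.5-fold 1316 genes were higher and 1541 lower, against 620 and 269 at 2-fold. The cause was not tested, beyond the fewer or more genes that a filter or fold threshold lets through.

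List counts moved too. With arrays centred, microRNA hosts had 4 higher and 2 lower (1 and 9 on the deposited scale), processing genes 6 higher and 1 lower (3 and 5), and CD4 T cell markers 3 lower (6). With no filter, 3 PRC2 partners were called higher (6) and 0 BACH1 partners or targets lower (3). Some calls ended there at large differences that themselves did not change, such as Fosb (log2 -1.52) and Ago4 (-0.95). Under a filter at the 75th percentile, which leaves out dim genes, 1 myeloid marker (6) and 1 dendritic cell marker (4) were called lower. No paired analysis was possible because there is only 1 ND array and its title carries no replicate number. Signal near the offset limits Spi1, Peli2 and the ND values of Fosl1, S100a9, Cd79a and Ebf1.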
